A study of Mus musculus with 36 samples.

Results

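The AP-1 and immediate early genes described here are 10 mouse genes taken by name: Fos, Fosb, Fosl1 and Fosl2 of the Fos family, Jun, Junb and Jund of the Jun family, and Atf3, Egr1 and Ier2. Each was found through its RefSeq accession as 1 of the 30048 transcript rows of the RNA count tables, and all 10 passed the filter on low counts in every comparison. In the methylation data they were represented by the cytosines in their gene bodies and in the 5000 bases on either side. These were 1431 of the 1444973 cytosines tested at 4 weeks and 1299 of the 1273121 tested at 12 weeks.

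Osteoarthritis was induced in male C57BL/6J mice, 12 weeks old, by surgical destabilization of the medial meniscus (DMM) of the right knee. The left knee of the same mice was not operated and served as the contralateral control, so no sham operation was part of the comparison and the control limb belonged to an operated animal. Microdissected cartilage, labelled as that of the tibial and femoral plateaus, was collected 4 or 12 weeks after surgery, and the tissue of 3 knees was pooled for each library. RNAseq covered 12 libraries, and reduced representation bisulfite and oxidative bisulfite sequencing (RRoxBS) covered 24, with 3 per limb, time-point and chemistry. Separate mice were used for RNA and for DNA, and all 4 groups had the same strain and sex, so mice of the 12-week groups were also older at collection.

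Members of the Fos and Jun families pair through leucine zippers to form AP-1, a transcription factor complex that binds a short palindromic DNA element. Several of these genes are immediate early genes, which are transcribed within minutes of a growth factor, cytokine or mechanical signal without new protein synthesis and whose messages decay quickly. In cartilage, AP-1 is known for its part in the response of chondrocytes to loading and to inflammatory cytokines, and for activating collagenase genes.

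The stretch just before the start site is shown for the members that held one of the searched elements there, because these elements are the ones through which AP-1, ATF and CREB factors are known to bind. Sequences are from RefSeq on GRCm38.p6, written 5′ to 3′ on the gene's strand and ending at the base before the start, with the matched element in capitals. The motifs searched on both strands in the 250 bases before the start were TGACTCA (the AP-1 site), TGACGTCA (the full cyclic AMP response element, CRE), TGACATCA (the variant known from the Jun promoter) and TGACG (the CRE core, which overlaps the full CRE). The table used held a promoter for Fos, Fosb, Fosl2, Jun, Junb, Jund and Atf3.
Fos, chr12:85473760-85473889, plus strand: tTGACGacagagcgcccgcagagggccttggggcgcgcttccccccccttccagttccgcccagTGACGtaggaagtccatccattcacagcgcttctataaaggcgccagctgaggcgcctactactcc
Fosb, chr7:19310046-19310175, minus strand: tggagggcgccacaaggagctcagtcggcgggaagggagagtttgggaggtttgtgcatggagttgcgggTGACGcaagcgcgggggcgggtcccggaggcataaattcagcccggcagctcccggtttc
Jun, chr4:95052223-95052352, minus strand: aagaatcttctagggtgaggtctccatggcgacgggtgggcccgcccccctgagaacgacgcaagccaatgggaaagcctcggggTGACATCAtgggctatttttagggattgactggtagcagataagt
Junb, chr8:84978749-84978878, minus strand: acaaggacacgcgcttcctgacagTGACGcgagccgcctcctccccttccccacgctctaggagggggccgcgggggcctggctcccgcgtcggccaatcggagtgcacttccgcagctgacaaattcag
Atf3, chr1:191183334-191183463, minus strand: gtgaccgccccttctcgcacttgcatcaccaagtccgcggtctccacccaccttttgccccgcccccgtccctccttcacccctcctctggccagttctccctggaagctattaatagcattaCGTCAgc

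The Fos stretch held the CRE core at 129 and at 66 bases before the start, Fosb at 60 and Junb at 106 bases. Atf3 held it on the opposite strand at 7 bases before the start, and Jun held TGACATCA at 45 bases. No searched element lay in the 250 bases before Fosl2 or Jund. Of 32851 promoters of this length, 17.8% held the CRE core, 4.46% the AP-1 site, 2.93% TGACATCA and 1.55% the full CRE. A match describes letters only.

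The RNA libraries held 27706547 to 62737656 counts. All 12 chondrocyte markers examined (such as Acan, Col2a1 and Sox9) were detected, and so were markers of skeletal muscle, blood, marrow, bone and synovial cells, none of which was at 0. In bulk tissue, fewer cells of a type and less RNA per cell cannot be told apart.

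Levels of the 10 members spanned a wide range. Per kilobase of transcript and averaged over the 12 libraries, Junb stood at 53.3 CPM (counts scaled to the size of the library) per kb, Ier2 at 42.5, Jund at 37.4, Egr1 at 28.6, Fos at 17.6 and Jun at 10.1. Lower levels per kb were measured for Atf3 (5.10), Fosl2 (4.35), Fosl1 (0.808) and Fosb (0.413). Junb therefore lay at percentile 94.7 of the 19409 genes compared, and Fosb at percentile 29.8. The ranges of neighbours in this order overlapped over the 12 libraries except between Fosl2 and Fosl1. The highest library exceeded the lowest 14.9-fold for Fosb, 9.68-fold for Fos and 7.85-fold for Fosl1, but only 2.10-fold for Fosl2, the least variable member by this measure.

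**Figure D1:**
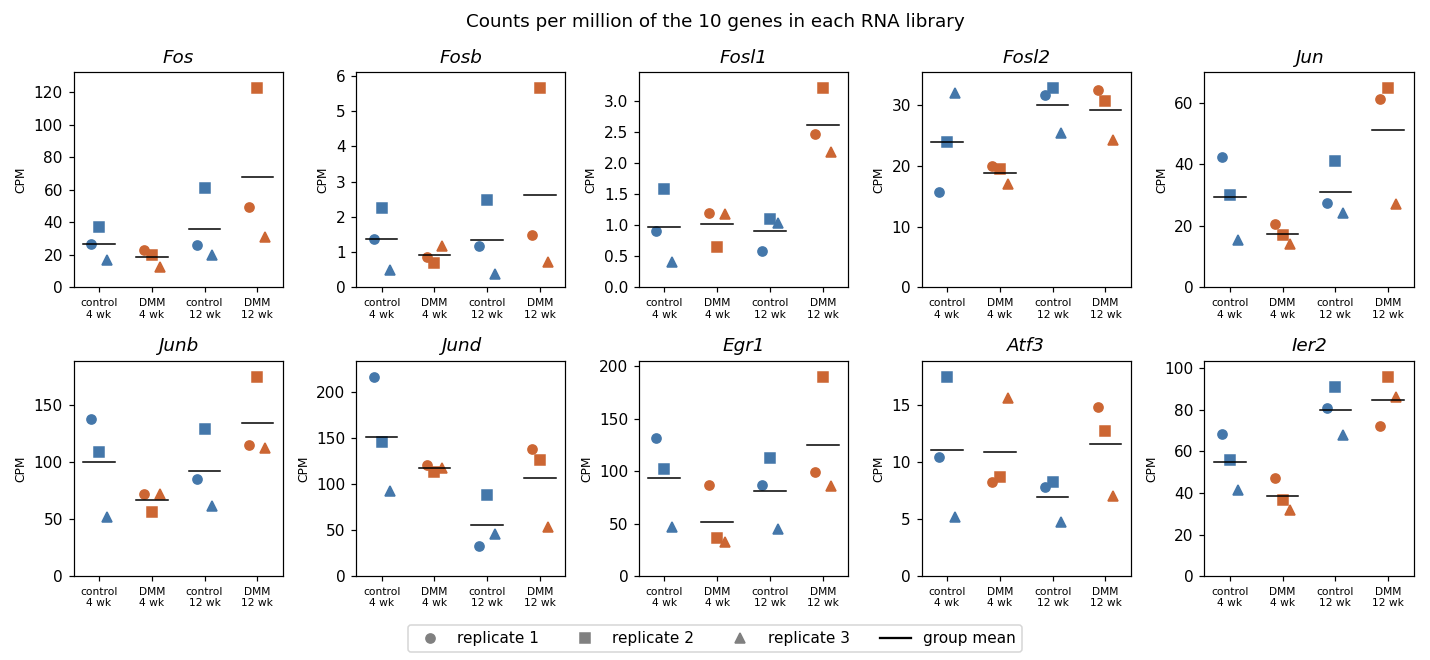
Level of each of the 10 members in each of the 12 RNA libraries, in CPM (vertical axis, from 0), by limb and time-point (horizontal axis), with 1 point per library and a line at the group mean. In DMM limbs the 12-week libraries of Fos, Fosl1, Fosl2, Jun, Junb and Ier2 all lie above the 4-week libraries, and 1 library, DMM replicate 2 at 12 weeks, is the highest of all 12 for 7 members.

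Limb differences mostly had opposite signs at the 2 time-points, and none passed the test at either. At 4 weeks 9 of the 10 members were lower in DMM-operated than in non-operated control limbs (median log2 fold change −0.52, against −0.03 over all 21140 transcripts tested). At 12 weeks 9 of the 10 were higher in DMM limbs (median 0.74, against 0.01 over 21010 transcripts). With edgeR's quasi-likelihood test and a BH adjusted p-value under 0.05, 0 of 10 members were called at 4 weeks, where 0.0757% of all transcripts were called, and 0 of 10 at 12 weeks, where 0.00476% were called. At an unadjusted p under 0.05 there were 0 members at 4 weeks (13.7% of all transcripts) and 2 at 12 weeks (16.3%). DESeq2 called 0 members at 4 weeks and 1, Fosl1, at 12 weeks, where it called 2.89% and 3.41% of all transcripts.

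Most chondrocyte markers differed between limbs in the same direction as most members. At 4 weeks 9 of the 12 chondrocyte markers were lower in DMM limbs (median log2 fold change −0.73), and at 12 weeks all 12 were higher (median 0.48), with none called at either time-point. Their summed level ranged from 17086 to 40542 CPM in control limbs and from 14395 to 21677 CPM in DMM limbs at 4 weeks. At 12 weeks it ranged from 11452 to 33283 CPM in control limbs and from 23117 to 37454 CPM in DMM limbs. In each of the 4 groups the library with the highest chondrocyte sum was also the one in which most members were highest. In control limbs at 4 weeks this rested on 5 members in replicate 1 against 4 in replicate 2. The mean log2 CPM of the 10 members was there higher in replicate 2 (4.72 against 4.60). The library with the lowest sum was the one in which most members were lowest in both control groups, but in neither DMM group. At 12 weeks DMM replicate 1 had the lowest sum (23117 CPM), while 9 members were lowest in replicate 3 (28741 CPM). At 4 weeks DMM replicate 2 had the lowest sum, with 4 members lowest against 5 in replicate 3. Skeletal muscle markers, summed, ranged from 5571 to 21270 CPM in control and from 491 to 3253 CPM in DMM limbs at 4 weeks, and all 12 were lower in DMM limbs (median −2.70, 1 called). Fibroblast and synovium markers ranged from 2837 to 4656 CPM in control and from 5422 to 7890 CPM in DMM limbs at 4 weeks, and osteoblast markers from 6547 to 7281 CPM and from 8745 to 11148 CPM. Macrophage markers, summed, ranged from 4293 to 5813 CPM in control and from 3486 to 4170 CPM in DMM limbs at 12 weeks, and all 8 were lower in DMM limbs (median −0.42, none called). The part of these cell types in the members' differences was not tested.

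**Figure D2:**
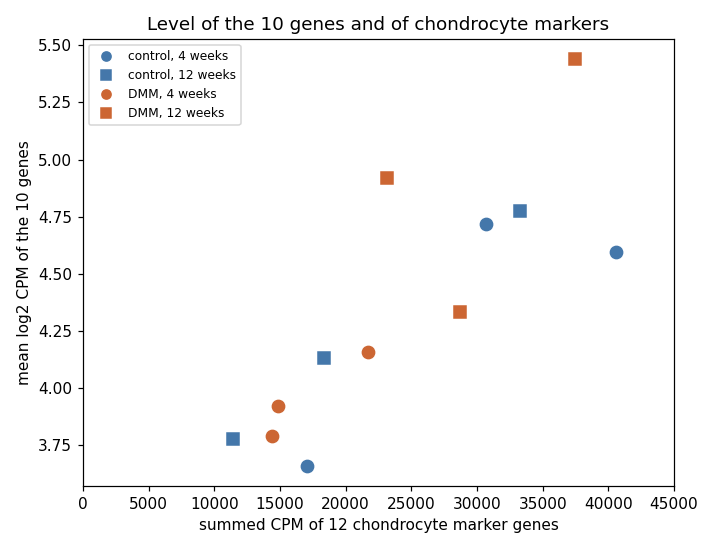
Mean log2 CPM of the 10 members (vertical axis) against the summed CPM of 12 chondrocyte markers (horizontal axis) in the 12 RNA libraries, 1 point per library, with colour for limb and shape for time-point. DMM replicate 2 at 12 weeks has the highest member mean, 5.44, at a marker sum of 37454 CPM, and the highest marker sum, 40542 CPM, belongs to control replicate 1 at 4 weeks, with a member mean of 4.60.

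Among the Fos family, Fos itself, the founding partner of Jun in AP-1, was measured at 26.4, 37.1 and 17.0 CPM in control and at 23.1, 19.6 and 12.7 CPM in DMM limbs at 4 weeks. At 12 weeks it stood at 26.0, 61.2 and 19.8 CPM in control and at 49.7, 122.7 and 31.1 CPM in DMM limbs. The limbs overlapped at both time-points, and replicate 2 was the highest library of both 12-week groups. The log2 fold change of DMM against control was −0.53 (SE 0.33, n = 3 libraries per limb, adjusted p = 0.449) at 4 weeks and 0.93 (SE 0.68, adjusted p = 0.515) at 12 weeks. The 12-week value was 0.20 when DMM replicate 2 was left out and 1.53 when the control library of that number was, the extremes over the 6 such fits.

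Fosl1 encodes Fra-1, a Fos-family protein without the transactivation domain of Fos. It was measured at 0.914, 1.58 and 0.409 CPM in control and at 1.19, 0.657 and 1.19 CPM in DMM limbs at 4 weeks. At 12 weeks it stood at 0.592, 1.10 and 1.03 CPM in control limbs against 2.47, 3.21 and 2.18 CPM in DMM limbs. The 12-week groups did not overlap, and Fosl1 was the only member of the 10 for which this was so in either limb comparison, where 21.2% of all transcripts at 4 weeks and 18.8% at 12 weeks did not overlap. Of all transcripts, 10% lay wholly above control at 12 weeks. Its level rested on 25 to 117 counts per library at that time. The log2 fold change was 1.53 (SE 0.33, unadjusted p = 0.00169), larger in size than that of 99.0% of transcripts tested, with an adjusted p of 0.192. The call depended on the tool, since DESeq2 gave Fosl1 an adjusted p of 0.00380. Over all alternatives run, the adjusted p ranged from 0.00380 to 0.678.

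Fosb, whose protein also pairs with Jun proteins, was near the limit of counting, with 14 to 153 counts per library. It stood at 0.380 to 2.47 CPM in control and at 0.705 to 5.66 CPM in DMM limbs at 12 weeks (log2 fold change 0.93, SE 0.88), and without DMM replicate 2 the value was −0.28. Fosl2, which encodes Fra-2, did not separate the limbs. Its log2 fold change was −0.35 (SE 0.28) at 4 weeks and −0.03 (SE 0.17) at 12 weeks.

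Among the Jun family, Jun was measured at 42.3, 30.0 and 15.4 CPM in control and at 20.7, 17.1 and 14.2 CPM in DMM limbs at 4 weeks. At 12 weeks it stood at 27.3, 41.2 and 24.1 CPM in control and at 61.3, 64.9 and 27.2 CPM in DMM limbs. DMM replicate 3 lay within the control range. The log2 fold change was −0.75 (SE 0.35, adjusted p = 0.378) at 4 weeks and 0.73 (SE 0.35, adjusted p = 0.334) at 12 weeks. For Junb, a Jun protein with weaker transactivation than Jun, the values were −0.58 (SE 0.33) and 0.55 (SE 0.28).

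Jund, the family member known for steady expression in resting cells, was at 217.1, 145.7 and 92.3 CPM in control and at 121.2, 112.9 and 117.9 CPM in DMM limbs at 4 weeks. At 12 weeks it was at 32.7, 88.2 and 46.0 CPM in control and at 138.2, 126.7 and 53.7 CPM in DMM limbs. All 3 control libraries of 12 weeks lay below all 3 of 4 weeks, while the DMM libraries of the time-points overlapped. The limb difference was −0.37 (SE 0.29) at 4 weeks and 0.94 (SE 0.49, adjusted p = 0.379) at 12 weeks on the log2 scale.

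Atf3, a stress-induced bZIP factor that can pair with Jun proteins, had a log2 fold change of −0.03 (SE 0.43) at 4 weeks. At 12 weeks it was measured at 7.80, 8.22 and 4.70 CPM in control and at 14.9, 12.7 and 7.05 CPM in DMM limbs. Only DMM replicate 3 fell within the control range. The log2 fold change was 0.75 (SE 0.32, unadjusted p = 0.0467, adjusted p = 0.299).

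Egr1, a zinc-finger factor induced by serum and mechanical signals, had the largest 4-week difference of the 10, −0.84 on the log2 scale (SE 0.47, adjusted p = 0.421). It was measured at 131.9, 102.3 and 46.3 CPM in control and at 86.3, 35.9 and 32.8 CPM in DMM limbs. Control replicate 3 and DMM replicate 1 made the groups overlap. At 12 weeks the difference was 0.63 (SE 0.40, adjusted p = 0.449). Omitting 1 library gave Egr1 values from −1.45 (DMM replicate 1 omitted) to −0.53 (control replicate 1) at 4 weeks and from 0.21 (DMM replicate 2) to 0.90 at 12 weeks. Ier2, an immediate early gene that encodes a nuclear protein, had a log2 fold change of −0.51 (SE 0.24, adjusted p = 0.383) at 4 weeks and of 0.09 (SE 0.15) at 12 weeks.

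**Figure D3:**
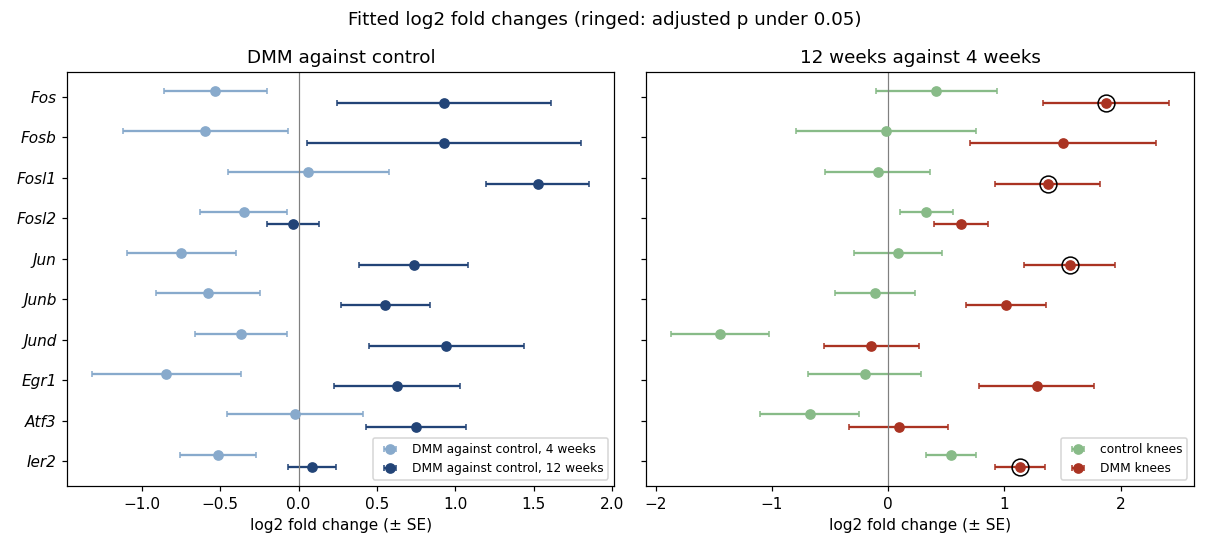
Log2 fold change of each member (vertical axis: gene, horizontal axis: log2 fold change) with bars of 1 standard error, for DMM against control at 4 and 12 weeks (left) and for 12 against 4 weeks within each limb (right), with a ring where the adjusted p was under 0.05. At 4 weeks 9 of 10 values lie below 0, at 12 weeks 9 of 10 lie above 0, and Ier2, Jun, Fos and Fosl1 are the members called in DMM limbs between time-points.

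The limb difference was then compared between time-points in 1 fit of all 12 libraries, which shares its libraries with the comparisons above. All 10 members had a positive interaction (median 1.38 on the log2 scale, against 0.03 over 21618 transcripts), from 0.30 for Fosl2 to 1.52 for Fosb. With 1 library left out the value of Fosb ran from 0.31, where DMM replicate 2 of 12 weeks was missing, to 2.33, and that of Fosl2 from 0.0084 to 0.55, so this order is not firm. None was called by edgeR, and neither was any transcript (0% of 21618). At an unadjusted p under 0.05 there were 4 members (12.3% of all transcripts): Jun (1.48, SE 0.54), Junb (1.13, SE 0.49), Fosl1 (1.46, SE 0.64) and Jund (1.30, SE 0.58). The adjusted p of each was 0.405, and DESeq2 called 0 members (0.0613% of all transcripts). The 12 chondrocyte markers were likewise all positive in this comparison (median 1.16), with none called. So were all 12 skeletal muscle markers (median 2.83). All 8 macrophage (median −1.07), all 10 neutrophil (median −0.49) and all 8 erythroid markers (median −0.30) were negative, with none called. The part of these cell types was not tested.

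Between time-points, 4 members rose in DMM limbs from 4 to 12 weeks. In this comparison 23.6% of all transcripts were called, 13.6% as higher. Ier2 rose from 47.4, 36.6 and 31.7 CPM to 72.2, 96.1 and 86.2 CPM (log2 fold change 1.14, SE 0.21, adjusted p = 0.00546). Jun (1.56, SE 0.39, adjusted p = 0.0165), Fos (1.87, SE 0.54, adjusted p = 0.0285) and Fosl1 (1.37, SE 0.45, adjusted p = 0.0459) rose as well. In 6 members (Fos, Fosl1, Fosl2, Jun, Junb and Ier2) the 12-week DMM libraries lay wholly above the 4-week ones, as 23.3% of transcripts did.

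The other 6 members did not pass. Junb (1.01, adjusted p = 0.0529), Fosl2 (0.63, adjusted p = 0.0674) and Egr1 (1.28, adjusted p = 0.0791) lay near the threshold, and DESeq2, which called 25.4% of all transcripts, called Junb and Egr1 besides the 4. Fosb had a value of 1.5 with a standard error of 0.80 (0.25 without DMM replicate 2 of 12 weeks), Atf3 of 0.09 and Jund of −0.14. The median of the 10 was 1.21, against 0.02 over all transcripts. Ier2 was called in all 12 fits that left out 1 library, Fos in 9, Jun in 8 and Fosl1 in 2, while Junb was called in 3 of these fits, Fosl2 in 2 and Egr1 in 1. Ier2 alone was called without DMM replicate 2 of either time-point or without DMM replicate 3 of 4 weeks. Over the 12 fits the log2 fold change ran from 0.97 to 1.31 for Ier2 and from 1.11 to 2.22 for Fos. It ran from 1.33 to 1.86 for Jun and from 1.10 to 1.51 for Fosl1. The share of all transcripts called in each fit is not set beside these counts, so a lost call cannot be laid to the member alone. The value of Fos fell to 1.11 (adjusted p = 0.126) without DMM replicate 2 of 12 weeks. Week after surgery cannot be told apart here from the age of the mice. Nor can it be told apart from any difference in how the libraries of the time-points were collected and prepared. Of the 12 chondrocyte markers, 10 were also higher at 12 weeks in DMM limbs (median 0.70, 4 called), and their sum ranged from 14395 to 21677 CPM at 4 weeks and from 23117 to 37454 CPM at 12 weeks. Summed neutrophil markers ranged from 13556 to 20280 CPM at 4 weeks and from 21139 to 34254 CPM at 12 weeks in these limbs. Adipocyte markers ranged from 295 to 497 CPM and from 131 to 196 CPM, and endothelial markers from 165 to 201 CPM and from 105 to 127 CPM. The time-points did not overlap for any of these sums. The sums of macrophage markers and of fibroblast and synovium markers did overlap. Even so, all 8 macrophage markers were lower at 12 weeks (median −1.27, 6 called), beside 23.6% of all transcripts called. Of the 8 fibroblast and synovium markers 6 were lower (median −1.12), with 4 called as lower and 1 as higher. The part of these cell types in the members' differences was not tested.

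In control limbs no member was called between time-points (5.69% of all transcripts were), and 2 had an unadjusted p under 0.05 (25.4% of transcripts). These were Jund, lower at 12 weeks (log2 fold change −1.45, SE 0.42, adjusted p = 0.0609), and Ier2, with 0.54 (SE 0.21, adjusted p = 0.140). For Jund, DESeq2, which called 11.5% of all transcripts, gave an adjusted p of 0.00728, and 10.9% of transcripts lay wholly below in this comparison, as Jund did. The median of the 10 was −0.05, against 0.00 over all transcripts.

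Other immediate early genes, a list of 38 of which 36 were tested, were counted in the same way. In DMM limbs 15 rose between time-points and 0 fell (median 0.79), where 13.6% of all transcripts were called as higher and 23.6% in all. They included Csrnp1, a nuclear factor named for its cysteine and serine content (2.05, SE 0.29, adjusted p = 0.00315), Gadd45g, a growth arrest and stress gene (1.10, adjusted p = 0.00338), and Zfp36, which encodes an RNA-binding protein that destabilizes cytokine messages (1.12, adjusted p = 0.00422). The orphan nuclear receptor gene Nr4a1 (1.95, adjusted p = 0.0121), the MAP kinase phosphatase gene Dusp1 (1.80, adjusted p = 0.0137) and Arc (1.76, adjusted p = 0.0102) rose too. With 1 library left out the count ran from 4, without DMM replicate 3 of 4 weeks, to 17, and it was 7 without DMM replicate 2 of either time-point. For Csrnp1 the control libraries also went from 11.1, 11.2 and 6.10 CPM at 4 weeks to 17.4, 21.0 and 16.1 CPM at 12 weeks. Gadd45g (22.6, 17.4 and 19.9 to 24.3, 23.8 and 24.9 CPM) and Zfp36 (38.9, 42.2 and 50.4 to 61.5, 71.0 and 59.9 CPM) likewise lay wholly higher there. Control libraries of the time-points overlapped for Nr4a1, Dusp1 and Arc, and none of these genes was called in control limbs. In control limbs Myc rose (1.07) while Klf2 (−1.24) and Dusp2 (−1.49) fell (5.69% of all transcripts were called), and the median was 0.04. These calls became 0 without control replicate 1 of either time-point, control replicate 2 of 4 weeks or control replicate 3 of 12 weeks. Calls over all transcripts fell too, from 1229 to 37 of 21891 without control replicate 1 of 12 weeks and to 202 of 21856 without that of 4 weeks. Just 1, lower, was left without control replicate 2 of 12 weeks or DMM replicate 2 of either time-point, and 3 higher and 6 lower were called without control replicate 3 of 4 weeks. Between limbs 28 of the 36 were lower in DMM at 4 weeks (median −0.43) and 31 higher at 12 weeks (median 0.35). None was called by edgeR, while DESeq2 called 1 as lower at 4 weeks and 4 as higher at 12 weeks, beside 2.89% and 3.41% of all transcripts. The smallest adjusted p at 12 weeks was that of Arc (1.30, SE 0.20, adjusted p = 0.0644).

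Of 16 genes listed as known AP-1 targets, 15 were tested, and 1 was called between limbs by edgeR, at 12 weeks, where DESeq2 called 3 (and 3.41% of all transcripts). Ptgs2, which encodes cyclooxygenase 2, was the single transcript of the whole table that edgeR called at 12 weeks. It was measured at 5.36, 5.51 and 6.33 CPM in control limbs against 21.1, 20.9 and 19.1 CPM in DMM limbs (log2 fold change 1.83, SE 0.15, adjusted p = 0.0329). The adjusted p rose to between 0.138 and 0.382 without control replicate 1 or 3 or DMM replicate 1 or 2, while the fold change stayed between 1.76 and 1.89 in every fit with 1 library left out. At 4 weeks edgeR called no target, and DESeq2 called 4, all higher in DMM limbs (2.89% of all transcripts). The 3 with the smallest p were Il11, a cytokine gene (2.40, adjusted p = 0.180), Mmp3, which encodes stromelysin 1 (3.68, adjusted p = 0.203), and Ptgs2 (1.14, adjusted p = 0.246).

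Mmp3 was at 28.2, 37.8 and 10.2 CPM in control and at 112.9, 198.3 and 668.4 CPM in DMM limbs at 4 weeks. The summed fibroblast and synovium markers and the summed osteoblast markers were also wholly higher in DMM limbs at that time, and their part in the targets' differences was not tested. The targets did not share a direction over time. In DMM limbs Il11 (1.96), Vegfa (1.44) and Plaur (0.97) rose between time-points, while Mmp3 (−2.94), Mmp13 (−1.27), Timp1 (−1.08), Ccnd1 (−0.77) and Cd44 (−0.57) fell, beside 23.6% of all transcripts called. The list median was −0.06. The 5 that fell became 0 without DMM replicate 3 of either time-point, 1 without DMM replicate 2 of either, 2 without DMM replicate 1 of 12 weeks and 3 without control replicate 2 of 4 weeks, while 2 to 4 rose with 1 library left out. In control limbs, where 5.69% of all transcripts were called, Plaur rose (1.04, adjusted p = 0.00937) and Ccnd1 fell (−1.0, adjusted p = 0.0412). Neither was called without control replicate 1 of 12 weeks, a fit in which 37 of all 21891 transcripts were called. No lower target was called without control replicate 1 of 4 weeks, control replicate 2 or 3 of 12 weeks, DMM replicate 2 of either time-point or DMM replicate 3 of 4 weeks, and 2 higher and 2 lower were called without control replicate 3 of 4 weeks.

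Across the 12 libraries the gene with the pattern most like Fos was Shf (Pearson r of log2 CPM 0.950 over 12 libraries, among 15576 genes), followed by Ergic1 (0.945), Egr2 (0.941), Mir24-2 (0.935) and Hspa1a (0.928). Of the members, Jun ranked 30 (0.886), Egr1 112, Junb 156 and Fosb 185, while Jund ranked 5932 (0.175). Genes among the most alike to Fosl1 were Kcnh3 (0.895), Stx4a (0.883), Hr (0.883) and Meis3 (0.882). These are descriptions over libraries that share their groups, depth and tissue makeup.

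Methylation was measured as the percentage of reads with an unconverted cytosine. Oxidative bisulfite (oxBS) libraries report 5mC alone, while bisulfite (BS) libraries report 5mC and 5hmC together. At 12 weeks control replicate 2 and DMM replicate 1, whose titles share a style, stood apart with a pooled oxBS level of 25.1% and 24.8%, against 29.9% to 32.0% in the other 4 libraries. They stand in opposite limbs but weigh unequally in reads pooled by limb. Among the 12-week oxBS libraries DMM replicate 1 had the highest median coverage (72 reads) and control replicate 2 the lowest (28 reads). Values without both are given beside the 12-week results.

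Promoters of all 10 members, taken as 1000 bases on either side of the start, were nearly free of 5mC. Their mean over control libraries ran from 0.154% to 1.65% at 12 weeks and from 0.466% to 1.48% at 4 weeks, against a median over all genes' promoters of 0.50% and 0.831%. Where tested cytosines lay in the 250 bases before the start, none had a group mean above 3.18%, in 24 cytosines of Fosl2, 8 of Atf3, 7 of Fosb and 3 of Junb. No tested cytosine lay there in Fos, Jun or Jund. Gene bodies differed among the 7 members with at least 5 tested cytosines there. Outside the promoter, bodies of Jun, Junb and Jund held 0.303%, 0.316% and 0.513% in control limbs at 12 weeks, whereas those of Fosb, Fos, Fosl1 and Fosl2 held 17.8%, 54.7%, 58.6% and 62.0%. The median of all gene bodies was 70.8%.

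**Figure D4:**
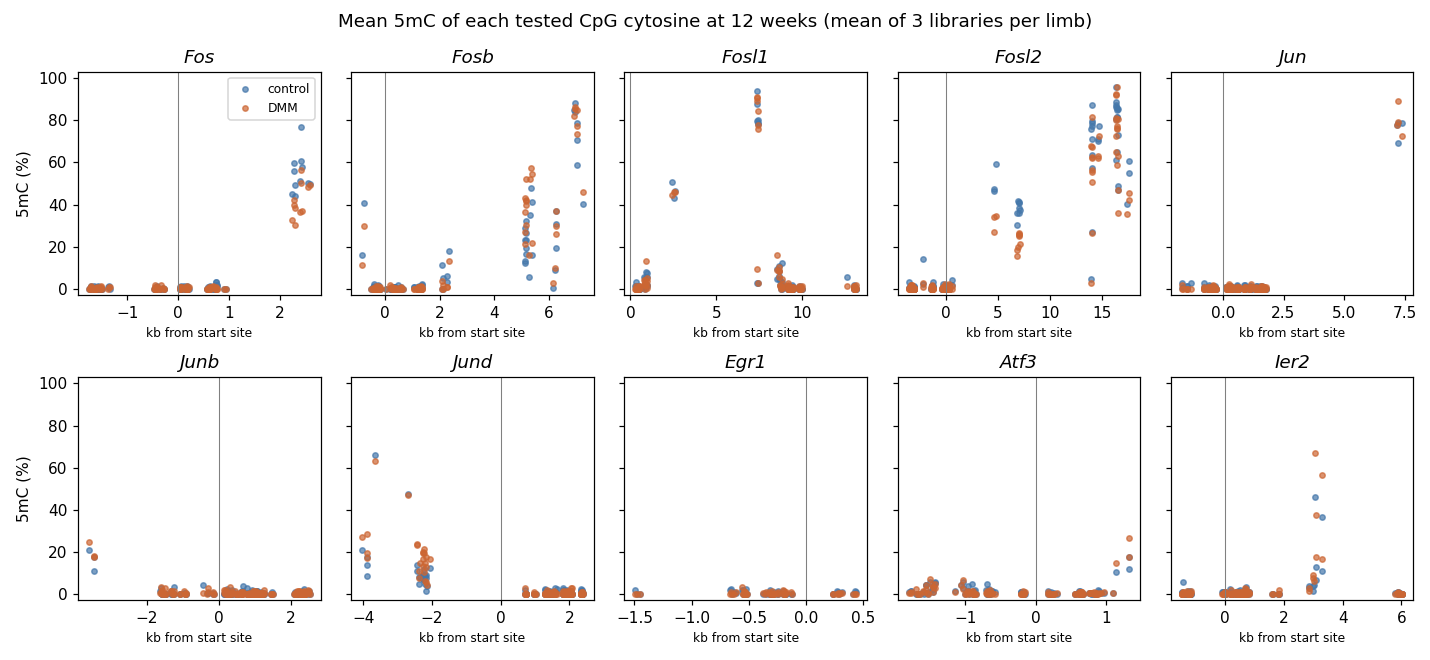
5mC in percent (vertical axis) of single cytosines in and around member genes, by distance from the transcription start in kb (horizontal axis), as means of 3 control and 3 DMM libraries at 12 weeks. Cytosines close to the start sit near 0 in both limbs, and the methylated cytosines lie in the gene bodies and farther out in the flanks.

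Single cytosines were compared by a likelihood ratio test on reads pooled by limb, and called at a BH q-value under 0.05 with a difference of at least 25 percentage points. At 4 weeks 0 of 1431 member cytosines were called (0.000554% of all cytosines), with 125 at an unadjusted p under 0.05 (8.02% of all), and at 12 weeks 2 of 1299 (0.227% of all, 0.2% lower and 0.027% higher). At 12 weeks 72 member cytosines had an unadjusted p under 0.05, as did 9.43% of all cytosines. With a correction for the spread between libraries (overdispersion) 0 were called at either time-point, as were 0 of all cytosines. In simulated data this correction recovered 0 of 200 changed cytosines, so its zeros do not bear on the 2 calls. The 2 called cytosines lay in the coding exon of Fos, where DMM was lower, and downstream of Ier2, where it was higher. Their stretches and that of the Fosb coding exon, which held the smallest q-value of all members, are printed from GRCm38.p6 because they hold the called cytosines and the smallest q-value. The CpGs tested on at least 1 strand are in capitals. The stretches, and that in the Fosl2 intron below, were chosen after their values were seen. Their counts cannot be weighed against the shares over all cytosines given beside them.
Fos, chr12:85476136-85476331, plus strand: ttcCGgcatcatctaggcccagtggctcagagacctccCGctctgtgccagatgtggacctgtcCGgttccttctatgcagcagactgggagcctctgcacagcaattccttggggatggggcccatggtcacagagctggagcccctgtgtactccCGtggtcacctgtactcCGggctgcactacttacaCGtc
Fosb, chr7:19304860-19304916, minus strand: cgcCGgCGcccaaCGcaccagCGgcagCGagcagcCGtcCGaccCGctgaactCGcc
Ier2, chr8:84659773-84659851, plus strand: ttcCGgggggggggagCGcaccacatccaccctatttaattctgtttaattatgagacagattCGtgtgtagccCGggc

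The called Fos cytosine, at chr12 position 85476310 on the plus strand and 2420 bases past the start, was methylated in 77.4%, 66.7% and 87.0% of reads in control and in 44.7%, 58.8% and 46.9% in DMM limbs at 12 weeks, with 12 to 38 reads per library. The limbs did not overlap, and the pooled difference was −30.5 points (q = 0.0167). All 9 cytosines tested in the stretch were lower in DMM limbs, with differences from −30.5 to −6.5 points, and 5 lay wholly below control, as 5.57% of all cytosines did. Neighbouring cytosines are read in the same fragments and are not independent. At 4 weeks the limbs overlapped at each. All 9 then had a lower mean over the DMM libraries, while on pooled reads 6 were lower and 3 higher.

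The Fosb stretch moved the other way. At position 19304872 of chr7, on the minus strand, 22.9%, 17.1% and 18.0% of reads were methylated in control and 53.8%, 40.0% and 33.3% in DMM limbs at 12 weeks, with 35 to 93 reads per library. Every DMM library lay above every control library. The pooled difference of 24.7 points fell just under the 25-point threshold, with q = 0.00110. Without control replicate 2 and DMM replicate 1, which held the lowest control and the highest DMM value, it was 15.0 points (q = 0.497). All 9 cytosines, over 51 bases of coding exon, were higher in DMM limbs, 4 with a q-value under 0.05, and 8 lay wholly above control, as 2.54% of all cytosines did. These 9 lie on the minus strand with nearly equal coverage within each library, so they share reads and are not independent. Without both libraries the 9 differences ran from 9.31 to 15.0 points, with none at a q-value under 0.05. At 4 weeks 8 of the 9 were higher and 2 lay wholly above (2.39% of all), with none at a q-value under 0.05.

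The called Ier2 cytosine lay 3076 bases from the start, downstream of the gene. It was methylated in 12.5%, 0% and 7.14% of reads in control and in 22.0%, 57.1% and 33.3% in DMM limbs, with 14 to 41 reads per library (difference 26.4 points, q = 0.0186). All 6 cytosines tested there at 12 weeks were higher in DMM limbs and 2 lay wholly above control (2.54% of all cytosines). At 4 weeks the called cytosine was not among the 4 tested there, of which 3 were higher and 1 lower, from −3.85 to 10.3 points, and 1 lay wholly above control (2.39% of all). In the Fosl2 intron 8 cytosines between 32143331 and 32143596 of chr5 were all lower in DMM limbs at 12 weeks, with differences from −21.9 to −10.8 points, 6 of them wholly below control (5.57% of all cytosines) and 2 with a q-value under 0.05. At 4 weeks all 8 were lower too, from −9.47 to −0.52 points, with overlap in each. Of the 201 Fosl2 cytosines tested at 12 weeks, the largest difference lay outside this stretch, at position 32141283 (−25.1 points, q = 0.117). With control replicate 2 and DMM replicate 1 left out, all cytosines of the Fos, Ier2 and Fosl2 stretches kept their direction and none had a q-value under 0.05. The called Fos cytosine then differed by −30.5 points (q = 0.160) and the called Ier2 cytosine by 33.2 points (q = 0.117).

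Mean 5mC was also taken per region, over the same reads. Of 25 member regions with at least 5 cytosines, 7 did not overlap between limbs at 12 weeks (24.2% of all regions), 3 above (4.47%) and 4 below control (19.7%). The Fos body was lower in DMM limbs, at 57.0%, 48.9% and 58.0% in control against 36.7%, 42.4% and 46.5% (mean 54.7% ± 5.01 against 41.9% ± 4.89, SD, n = 3 libraries per limb). Control replicate 2 and DMM replicate 1 were the lowest libraries of their limbs, and the others still did not overlap. The Fosl2 body stood at 62.0% ± 1.07 in control and 52.9% ± 1.92 in DMM limbs, and the Fosb body at 17.8% ± 0.28 and 21.5% ± 1.31. The flank of Jund was higher in DMM limbs (13.1% ± 1.03 against 19.3% ± 3.55), and so was that of Ier2 (2.48% against 4.01%). The other 2, the promoter of Atf3 (0.679% against 0.378%) and the flank of Fosl2 (0.625% against 0.310%), were lower. Without control replicate 2 and DMM replicate 1 the differences of the 7 regions were 0.677 to 1.23 times those with all libraries. The exact permutation p of each was 0.1, the smallest that 3 against 3 libraries allow (adjusted p = 0.455), two-sided.

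**Figure D5:**
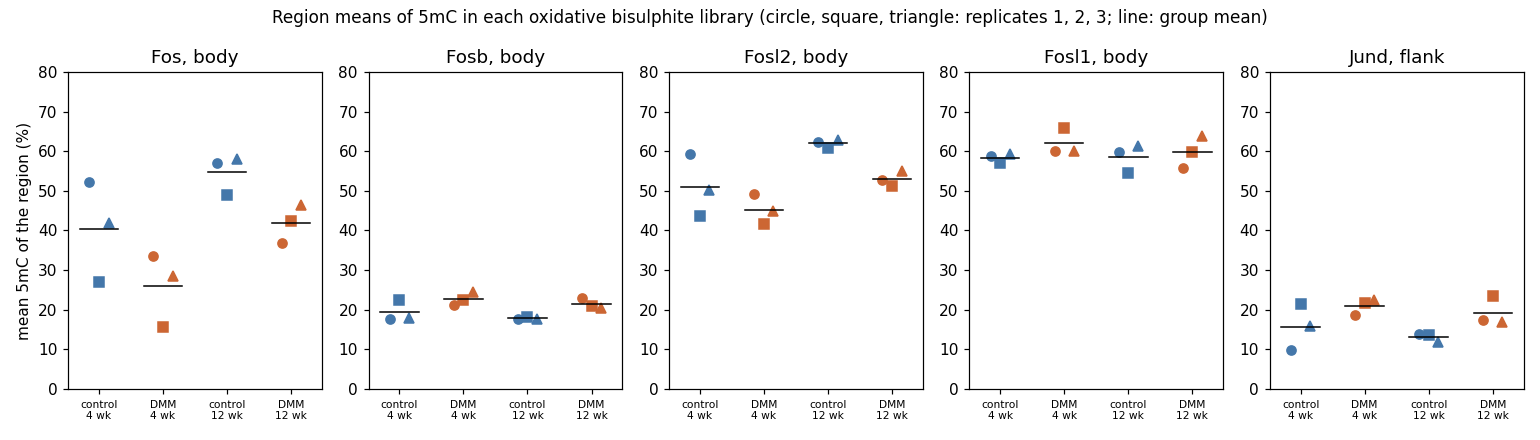
Mean 5mC in percent per library (vertical axis) for 5 member regions, by limb and time-point (horizontal axis), with 1 point per oxBS library and a line at the group mean. At 12 weeks the bodies of Fos and Fosl2 lie lower and the body of Fosb and the flank of Jund lie higher in all 3 DMM libraries than in all 3 control libraries.

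At 4 weeks 4 of 25 regions did not overlap (9.01% of all regions, 2.85% above and 6.16% below): the Fosl1 body (58.4% ± 1.25 in control and 62.0% ± 3.38 in DMM limbs), the Jun body and Jun flank (27.2% ± 0.72 and 29.8% ± 1.37) above control, and the Fos flank below. The Fos body was at 40.3% ± 12.7 and 25.9% ± 9.17, with overlap. For the Fosl1 body at 12 weeks the limbs overlapped (58.6% ± 3.63 and 59.7% ± 3.98).

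5hmC, taken as BS minus oxBS, had means below 0 in several promoters, and in control limbs its highest member mean was 10.3%, in the Fosl2 body at 4 weeks. The BS file of DMM replicate 1 at 12 weeks carries another replicate number in its name than in its label, which was followed, and the 12-week 5hmC values of that replicate depend on it. At 12 weeks 5 of 23 regions lay wholly above control and 0 below (8.97% and 2.89% of all regions). The flank of Jund held 5.28%, 6.52% and 5.14% in control and 9.20%, 10.6% and 9.46% in DMM limbs, and the Fosb body 2.73% ± 0.41 and 5.07% ± 1.80. The remaining 3, the promoters of Fosb and Fosl1 and the Fosl2 flank, had means under 1%. Without control replicate 2 and DMM replicate 1 the differences of these 5 were 0.919 to 1.40 times those with all libraries. At 4 weeks 2 of 25 did not overlap (9.42% of all regions): the Fos body, at 9.71% ± 2.03 in control and 17.2% ± 5.15 in DMM limbs, and the Jun flank, lower in DMM limbs (4.77% ± 0.78 and 0.952% ± 0.31). The exact permutation p was again 0.1 in each case.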

How the data were processed

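For RNA, the authors deposited raw counts per RefSeq transcript made with featureCounts from STAR alignments to mm10, after adapter removal with FLEXBAR and base calling with CASAVA 2.17; whether strand was used is not given in the sources used here. Ccdc85b, which overlaps Fosl1, may therefore share reads with it. Junos lies next to Jun but does not overlap it. For methylation, the authors used Bismark, per their processing notes, and deposited, per cytosine covered by at least 10 reads, the coverage and the percent of converted and unconverted reads in each BS or oxBS library. Methylated read numbers were taken from coverage and percent.

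Transcripts were filtered with filterByExpr, scaled by TMM and tested with edgeR 4.0.16 (quasi-likelihood, R 4.3.3), with DESeq2 1.42.0 as an alternative; BH adjustment ran over all transcripts tested. CPM are edgeR values. Cytosines with at least 10 reads in all 6 libraries of a time-point were tested by likelihood ratio with SciPy 1.17.1. Region means used exact permutation. Median oxBS coverage per library was 22 to 102 reads. Because tissue was pooled, the RNA and region p-values measure the spread between pools, not between mice. The main single-cytosine p-values and q-values come from reads pooled by limb. They cover counting error only and not the spread between pools.

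All 10 members were named in every comparison. From the lists of bZIP, other immediate early, upstream, target and heat shock genes, named genes were taken from those past the threshold or, where none was, from the 3 with the smallest p. Cell type lists are given by counts and sums. Of the 5 genes most like Fos and the 5 most like Fosl1, 1 is not reported here. From the 15 other immediate early genes that rose in DMM limbs, 6 were chosen after their values were seen. The members and lists were chosen with earlier results of these data known. The fits with 1 library left out for the other immediate early genes and Ptgs2 were chosen after seeing the data. Replicate numbers were not used as pairs. In data simulated from these counts, changes of 1.5 on the log2 scale were called for 119 of 196 transcripts at 4 weeks, 146 of 198 at 12 weeks and 39 of 199 in the interaction. No columns outside the series were used.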

Additional observations from a re-analysis of the deposited data

How the results depend on the processing

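The number of member cytosines called at 12 weeks, 2 with the main settings, was 0 with 20 reads in every library, 0 with control replicate 2 and DMM replicate 1 both left out, 0 under the overdispersion correction, 0 at a q-value under 0.01, and 6 at a difference of 20 points. The 6 were among 1299 member cytosines, where 8582 of all 1273121 were called. Over all cytosines 1519 were called with 20 reads, 1433 without both libraries, 0 under the correction and 1871 at a q-value under 0.01. In simulated data the overdispersion correction recovered 0 of 200 changed cytosines, so its zeros say nothing of stability. With 1 library left out the count ran from 1 to 3 at 12 weeks and from 0 to 5 at 4 weeks, where 5 came without control replicate 2. Over all cytosines the fit without that library called 3039 of 1444973 at 4 weeks, against 8 with all libraries. At 12 weeks the fits with 1 library left out called 1641 to 5720 cytosines in all. Member regions whose limbs did not overlap, 11 over both time-points for 5mC and 7 for 5hmC, numbered 12 to 18 and 11 to 14 with 1 library left out, since fewer libraries overlap less easily. DESeq2 called 1 member, Fosl1, at 12 weeks, and 1, Jund, between time-points in control limbs, where the main test called 0. With 1 library left out, members called in DMM limbs between time-points ran from 1 to 6, in control limbs from 0 to 1, and 0 to 0 in the limb comparisons and the interaction. The total of transcripts called changed in such fits as well. Between time-points in control limbs it fell from 1229 to 37 without control replicate 1 of 12 weeks. A call lost in such a fit can therefore follow from fewer calls in all. Without the filter on low counts Fosl1 was lost in DMM limbs, leaving 3.

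The labels give limbs the same replicate numbers without saying that these mark the same mice. Deviations of same-numbered libraries correlated at 0.359, −0.326 and 0.0808 at 4 weeks and at −0.548, 0.262 and −0.254 at 12 weeks. With 3 libraries per group these values cannot settle whether the numbers mark pairs. The main tests did not use the numbers. With a replicate block 1 member (Fos, adjusted p = 0.0266) was called at 12 weeks, and transcripts called rose from 16 to 354 at 4 weeks and from 1 to 734 at 12 weeks. For 5mC 18 member regions over both time-points, with 25 regions at each, moved in 1 direction in all pairs. The share of all regions that did so was not computed, so this count cannot be weighed. Among the lists the block called 1 AP-1 target at 4 weeks and 4 at 12 weeks, 1 other immediate early gene as lower at 4 weeks and 9 as higher at 12 weeks, and 1 heat shock gene at 12 weeks. DESeq2 called 740 and 862 transcripts at 4 and 12 weeks. The block turned the 4-week log2 fold change of Atf3 from −0.03 to 0.052.

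The log2 fold changes that turned sign with 1 library left out ran from −0.37 to 0.47 (Atf3) and −0.32 to 0.61 (Fosl1) at 4 weeks, and from −0.28 to 1.69 (Fosb), −0.16 to 0.089 (Fosl2) and −0.034 to 0.18 (Ier2) at 12 weeks. Between time-points they ran from −0.14 to 0.41 (Atf3) and −0.38 to 0.18 (Jund) in DMM limbs. In control limbs they ran from −0.56 to 0.11 (Egr1), −0.23 to 0.72 (Fos), −0.82 to 0.53 (Fosb), −0.48 to 0.47 (Fosl1), −0.26 to 0.42 (Jun) and −0.46 to 0.17 (Junb). Of the members' log2 fold changes with 1 library left out, 427 kept direction and side of the threshold, 27 turned sign, 17 lost and 9 gained a call. Under the other settings 283 kept both, 5 gained and 1 lost a call, and 1 turned sign.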

Other observations

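Of 12 listed bZIP genes besides the members, 4 were called in DMM limbs between time-points, where 23.6% of all transcripts were called. In DMM limbs Mafk (log2 fold change 0.97, SE 0.21, adjusted p = 0.00839) and Mafg (0.52, adjusted p = 0.0243) rose from 4 to 12 weeks, while Jdp2, known as a repressor of AP-1 (−0.94, adjusted p = 0.0104), and Atf2 (−0.43, adjusted p = 0.0489) fell. The 4 became 2 without DMM replicate 1 or 3 of 12 weeks or DMM replicate 2 or 3 of 4 weeks. Jdp2 also fell in control limbs (−1.47, SE 0.21, adjusted p = 0.00706), a call that was lost without control replicate 1 of 12 weeks. None of the 12 was called between limbs at either time-point by edgeR or DESeq2.

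Of 16 listed genes upstream of the members, Mrtfa, which encodes a coactivator of serum response factor, rose in DMM limbs (1.51, adjusted p = 0.00612) and in control limbs (1.38, adjusted p = 0.0227) from 4 to 12 weeks. In control limbs 5.69% of all transcripts were called. Mrtfa lost its call there without control replicate 1 of 12 weeks (37 transcripts called in all) or of 4 weeks (202). The same held without control replicate 2 of 4 weeks, control replicate 3 of 12 weeks or DMM replicate 2 of 4 weeks. In DMM limbs Map2k7 (0.77) and Mapk3 (0.46) rose as well, and Rps6ka3 (−0.91), Mrtfb (−0.70) and Elk4 (−0.49) fell, where 23.6% of all transcripts were called. The 3 that fell became 0 without DMM replicate 3 of either time-point and 1 without DMM replicate 2 of either, and the 3 that rose became 1 without DMM replicate 2 or 3 of 4 weeks. Between limbs edgeR called none, while DESeq2 called 1 as lower at 4 weeks, beside 2.89% of all transcripts. Over time in control limbs DESeq2 called 1 as higher and 1 as lower, beside 11.5% of all transcripts. Of 12 heat shock genes, Hspa1a (1.75, adjusted p = 0.0229) and Dnajb1 (0.60, adjusted p = 0.0481) rose in DMM limbs, where 13.6% of all transcripts were called as higher. The count of 2 became 0 without DMM replicate 1 or 2 of 12 weeks or DMM replicate 2 or 3 of 4 weeks. With all libraries none was called in control limbs or between limbs by edgeR or DESeq2. Without control replicate 3 of 4 weeks, 1 was called as higher and 2 as lower over time in control limbs.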
